A study of Mus musculus with 26 samples.

Results

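The MHC class II presentation genes are the 10 genes H2-Aa, H2-Ab1, H2-Eb1, Cd74, H2-DMa, H2-DMb1, H2-DMb2, H2-Oa, H2-Ob and Ciita. They were taken by gene name in the monocyte and SPM tables and by the same Ensembl identifier in the lung table. All 10 were found in each of the 3 tables, among 50104 identifiers that the tables share, and all 10 passed the filter on low counts in each cell type. On the genome build GRCm38, 8 of them lie in the H2 region of chromosome 17, from H2-Oa, which starts at base 34092340, to H2-Eb1, which ends at base 34316199. Ciita lies on chromosome 16 and Cd74 on chromosome 18.

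The study sorted cells of naïve female mice, WT or ACKR2-/-, by FACS and sequenced their RNA in 26 samples of 3 cell types. WT mice were C57BL/6J from a supplier and ACKR2-/- mice came from a homozygous colony bred at the institute, so genotype and breeding source cannot be told apart. Each bone marrow monocyte and SPM sample pooled cells of 5 mice, with 4 samples per genotype, and there were 5 samples per genotype of MHCII negative lung macrophages, for which no source used here gives the number of mice. SPMs are small peritoneal macrophages, the monocyte derived macrophages of the peritoneal cavity. CD45+ cells were gated throughout, and no cells were treated. Monocytes were CD11b+ Ly6C+, SPMs were F4/80 mid and MHCII positive, and the lung cells were CD11b+ F4/80+ interstitial macrophages without MHCII on their surface. The class II protein itself was therefore part of the gate in the peritoneum and the lung and not in the bone marrow. Lungs were digested with enzymes to free the cells, while peritoneal cells came by lavage and bone marrow cells by flushing. The cell type cannot be told apart from that gate, from this handling or from the table a library belongs to.

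MHC class II molecules carry peptides from engulfed proteins to the cell surface, where CD4 T cells read them. H2-Aa and H2-Ab1 encode the alpha and beta chains of I-A, and H2-Eb1 encodes the beta chain of I-E, whose alpha chain gene is inactive in C57BL/6 mice. Cd74 encodes the invariant chain, which holds the peptide groove shut on the way to the endosome. H2-DMa, H2-DMb1 and H2-DMb2 encode chains of H2-M, which exchanges the last invariant chain fragment for peptide, and H2-Oa and H2-Ob encode H2-O, an inhibitor of H2-M found mainly in B cells and some dendritic cells. Ciita encodes the coactivator that switches these genes on together. It is recruited to a shared promoter module, in which an X box is bound by RFX and CREB proteins and a Y box by NF-Y.

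Promoter stretches of 6 members are shown because this module is what the class II genes are known to share. They come from RefSeq promoters of GRCm38.p6, which held 8 entries for 7 of the 10 members (H2-Ab1, Cd74 and Ciita had none), each from 250 bases before to 50 after a transcription start. Every stretch runs 5′ to 3′ on the strand of its gene over 76 bases, and is aligned so that the Y box letters GATTGG, in capitals, start at the same place. The capitals before it in 4 stretches mark ATGATG, letters of the X box.
H2-Aa (chr17:34287847-34287922, minus strand): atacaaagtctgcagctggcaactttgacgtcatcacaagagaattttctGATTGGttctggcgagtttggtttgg
H2-Eb1 (chr17:34305757-34305832, plus strand): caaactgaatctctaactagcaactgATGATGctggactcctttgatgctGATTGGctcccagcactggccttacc
H2-DMb1 (chr17:34153079-34153154, plus strand): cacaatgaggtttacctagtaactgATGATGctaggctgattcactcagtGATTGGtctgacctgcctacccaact
H2-DMb2 (chr17:34145108-34145183, plus strand): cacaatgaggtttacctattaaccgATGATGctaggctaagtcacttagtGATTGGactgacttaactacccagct
H2-Oa (chr17:34092285-34092360, plus strand): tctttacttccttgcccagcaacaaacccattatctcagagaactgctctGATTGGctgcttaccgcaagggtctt
H2-Ob (chr17:34238797-34238872, plus strand): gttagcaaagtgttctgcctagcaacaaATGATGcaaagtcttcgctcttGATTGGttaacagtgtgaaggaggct
Both motifs were chosen after these promoters had been read, and were then searched on both strands of all 32851 promoters. GATTGG stood in an entry of each of the 7 members that had any, and in 16.1% of all promoters. For H2-DMa it was absent from the entry at bases 34122582 to 34122881 and present in that at 34125268 to 34125567. There it lay 193 bases before the transcription start, against 38 to 85 bases in the genes shown. Both H2-DMa entries lie before the gene as counted, which starts at base 34135182. ATGATG stood in 4 members, H2-Eb1, H2-DMb1, H2-DMb2 and H2-Ob, and in 11.2% of all promoters. Only these exact letters were searched, so their absence from the other members does not show that an X box is missing there. ATGATG followed by GATTGG on the same strand within 30 bases was found in 32 of all the promoters (0.0974%), among them those of these 4 members. In them the gap between both motifs was 18 bases in H2-Eb1, 19 in H2-DMb1 and H2-DMb2 and 16 in H2-Ob. The stretches of H2-DMb1 and H2-DMb2 were 86.8% identical (66 of 76 bases), while the other 14 pairs were 26.3% to 42.1% identical. H2-DMb1 and H2-DMb2 are neighbouring copies, so reads may be split between them and their separate counts are uncertain.

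The total count on genes ranged from 12781144 to 35400034 per sample, and levels are given as CPM, counts scaled to library size. Monocytes carried their defining markers (Ly6c2 at 3271 to 6461 CPM). In SPMs the 10 markers of large peritoneal macrophages summed to 665 to 1480.0 CPM in WT and 1175 to 2386 CPM in ACKR2-/- samples, with the factor Gata6 low (0.929 to 3.72 CPM) and markers such as Icam2 (97.6 to 811 CPM) and Fcna (276 to 619 CPM) well above it. The lung cells held Adgre1, the gene of F4/80 (279.8 to 653 CPM), and also epithelial transcripts (Sftpc at 181 to 10145 CPM). The 10 interstitial macrophage markers summed to only 525 to 1965 CPM in 9 lung samples. They summed to 12737 CPM in lung WT replicate 3 and to 8928 to 16697 CPM in SPMs. The 10 alveolar macrophage markers summed to 1799 to 3016 CPM in the same 9 lung samples, and to 5059 to 9323 CPM in monocytes. The monocyte sum was nearly all Chil3 (4960 to 9210 CPM), while Car4, Fabp1 and Krt79 were at 0 there. Car4 was at 18.4 to 282 CPM in those lung samples, so the sums do not rank the list as a whole. The markers thus do not settle the identity of the cells in these 9 samples. B cell transcripts were present in both macrophage populations, with Cd79a at 72.7 to 269 CPM in SPMs and at 51.7 to 370.0 CPM in 9 lung samples. Ackr2 had 5, 8, 7 and 9 counts in WT SPMs and 0 in ACKR2-/- SPMs, and at most 2 counts in any monocyte sample, which checks nothing there. In the lung it had 469, 436, 150, 372 and 0 counts in WT replicates 1 to 5 and 7 to 50 in ACKR2-/- samples. The library labelled WT replicate 5 thus went against its label, and WT replicate 3 stood apart in its class II counts, so the lung genotype tests are given with and without them, and the lung levels and cell type contrasts with and without WT replicate 3.

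The class II genes took a very different share of the counts in the 3 cell types. Together the 10 genes held 0.0813% to 0.119% of all counts in monocytes and 10.9% to 12.7% in SPMs. In the MHCII negative lung macrophages they held 0.372% to 0.853% in 9 samples and 9.58% in WT replicate 3. The SPM range was thus above every monocyte sample and above every lung sample, and a single lung library reached close to it. In bulk samples, fewer cells that make a transcript and less of it per cell cannot be told apart.

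Levels between genes were compared as CPM per kilobase of gene length, scaled over all 26 samples. In monocytes the order was Cd74 at 184 ± 29.8 (SD, n = 8), H2-DMa at 141 ± 29.7 (SD, n = 8), H2-DMb1 at 62.3 ± 12.4 (SD, n = 8), H2-Ab1 at 51.1 ± 6.35 (SD, n = 8), H2-Aa at 35.1 ± 4.98 (SD, n = 8) and H2-Eb1 at 21.9 ± 4.43 (SD, n = 8). The ranges of Cd74 and H2-DMa overlapped (133 to 217 and 86.1 to 192), as did those of each further pair of neighbours from H2-DMb1 to H2-Eb1. H2-DMb2 stood at 9.07 ± 1.05 (SD, n = 8). The 3 lowest were H2-Oa at 1.46 ± 0.703 (SD, n = 8), H2-Ob at 0.551 ± 0.197 (SD, n = 8) and Ciita at 0.266 ± 0.107 (SD, n = 8). In monocytes the H2-M chain H2-DMa was therefore above all 3 chains of the peptide binding molecules.

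In SPMs the order differed. Cd74 led at 55767 ± 9037 (SD, n = 8), followed by H2-Ab1 at 35843 ± 5610.1 (SD, n = 8), H2-Aa at 25248 ± 4699 (SD, n = 8) and H2-Eb1 at 19716 ± 3781 (SD, n = 8). H2-DMa at 2374 ± 555 (SD, n = 8) and H2-DMb1 at 2209 ± 600.4 (SD, n = 8) came next and did not differ beyond their spread. H2-DMb2 was at 355 ± 154 (SD, n = 8), H2-Oa at 25.3 ± 8.59 (SD, n = 8), H2-Ob at 20.7 ± 4.99 (SD, n = 8) and Ciita at 14.2 ± 4.44 (SD, n = 8), with overlapping ranges among the last 3. Every member was higher in each SPM sample than in each monocyte sample.

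In the lung macrophages without surface MHCII the first 5 genes stood in the same order as in SPMs once WT replicate 3 was left out, at lower levels. Over the 9 samples without WT replicate 3, Cd74 stood at 2456 ± 612 (SD, n = 9), H2-Ab1 at 503 ± 227 (SD, n = 9), H2-Aa at 274 ± 117 (SD, n = 9) and H2-Eb1 at 261 ± 122 (SD, n = 9). H2-Aa and H2-Eb1 overlapped widely. H2-DMa was at 67.3 ± 14.0 (SD, n = 9), below its monocyte mean, H2-DMb1 at 44.6 ± 8.68 (SD, n = 9) and H2-DMb2 at 37.6 ± 17.5 (SD, n = 9). H2-Ob at 12.3 ± 4.51 (SD, n = 9) and H2-Oa at 9.66 ± 5.05 (SD, n = 9) were within their spread of each other, and Ciita was lowest at 0.486 ± 0.219 (SD, n = 9). With WT replicate 3 included the lung means were 4684 for Cd74, 1419.8 for H2-Ab1, 990.2 for H2-Eb1 and 908 for H2-Aa, which puts H2-Eb1 above H2-Aa.

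**Figure D1:**
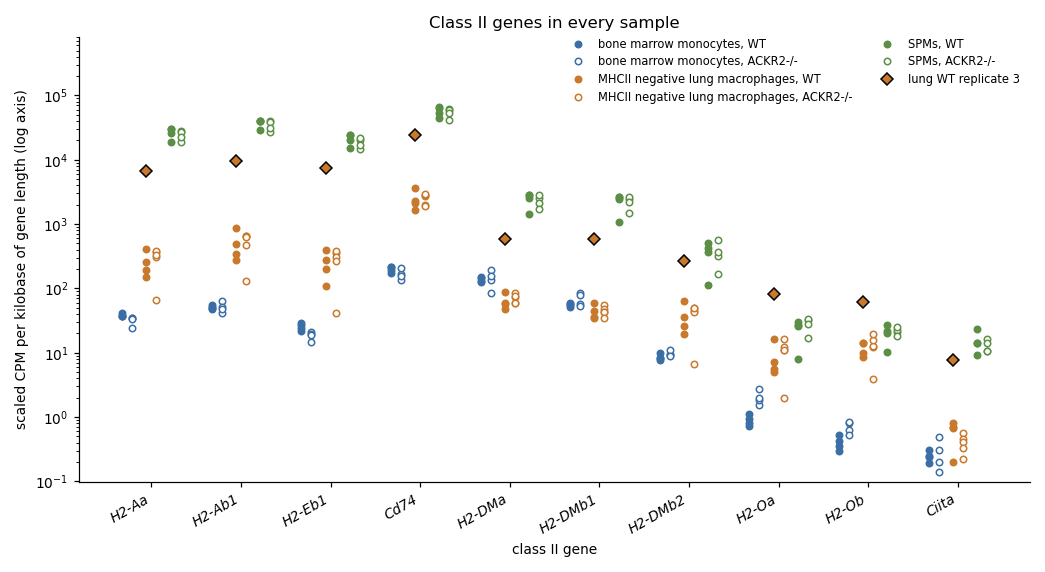
Level of each class II gene in each of the 26 samples, in scaled CPM per kilobase of gene length on a log axis, coloured by cell type (filled WT, open ACKR2-/-). SPMs sit above monocytes for all 10 genes, and lung WT replicate 3 (diamond) sits above the other 9 lung samples for all 10.

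WT replicate 3 of the lung held far more class II transcripts than the other 9 lung samples. In CPM scaled within the lung table, H2-Aa was at 941, 632, 16613, 488 and 353 in WT replicates 1 to 5 and at 851, 906, 778, 149 and 848 in ACKR2-/- replicates 1 to 5. WT replicate 3 was 17.7-fold above the next sample. H2-Ab1 was at 1708, 1031, 21242, 773 and 566 in WT and at 1304, 1361, 1063, 253 and 1453 in ACKR2-/- samples, with replicate 3 12.4-fold above the next. The same library was high for Cd74, which was at 6153, 3951, 46795, 3151 and 3987 in WT and at 4668, 5115, 3882, 3282 and 5658 in ACKR2-/- samples. Ciita, the coactivator, was at 7.79, 8.75, 98.3, 10.7 and 2.37 in WT and 6.47, 5.57, 5.24, 2.53 and 4.36 in ACKR2-/- samples, and again only WT replicate 3 stood clear of the others.

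All 10 members were over 2 times as high in WT replicate 3 as in the next of the 9 other lung samples, against 593 of 16824 genes tested (3.52%). The excess over the next sample was largest for H2-Eb1 (20.9-fold), and lower for the H2-M chains H2-DMb1 (10.8-fold) and H2-DMa (7.33-fold). It was smallest for H2-Oa (4.90-fold), H2-DMb2 (4.56-fold) and H2-Ob (3.01-fold). This library was singled out with its values known, so no test is given.

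At the other end, ACKR2-/- replicate 4 was the lowest lung sample for H2-Aa, H2-Ab1, H2-Eb1, H2-DMb2, H2-Oa and H2-Ob. Its level was 12.5% of the median of the 8 remaining samples for H2-Eb1, 13.8% for H2-DMb2 and 16.9% for H2-Oa. For Cd74 (75.8%), H2-DMa (82.5%) and H2-DMb1 (88.8%) it lay within their range. The 6 genes that were low and these 3 thus did not move together in this sample. It also had the lowest sums of the B cell (671 CPM), dendritic cell (77.1 CPM) and lung epithelial lists (290.4 CPM, against up to 19692 CPM), whose part in its class II counts was not tested.

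**Figure D2:**
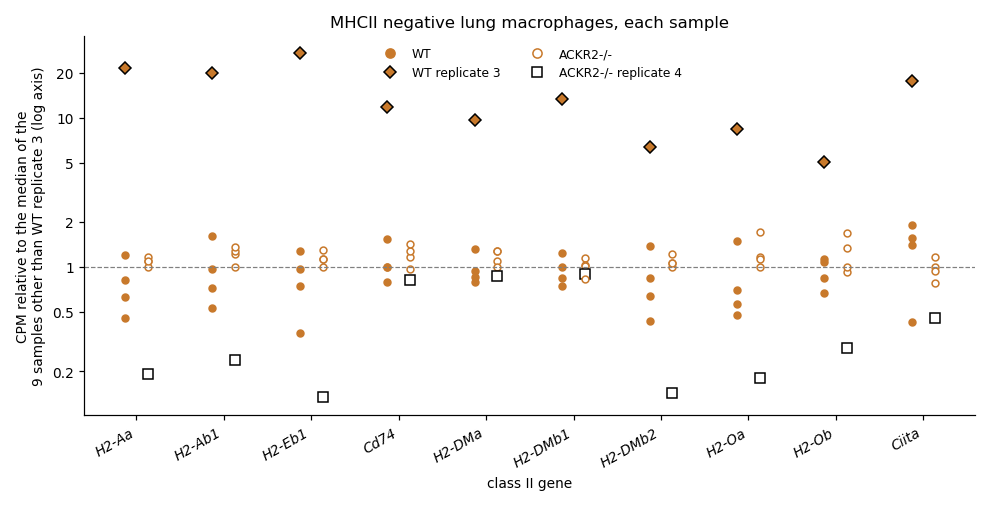
Each lung sample's CPM for each class II gene relative to the median of the 9 samples other than WT replicate 3, on a log axis. WT replicate 3 (diamonds) lies between 5.08 and 26.9 times that median, and ACKR2-/- replicate 4 (squares) is lowest for H2-Aa, H2-Ab1, H2-Eb1, H2-DMb2, H2-Oa and H2-Ob.

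Markers of cells that carry class II stood high in the same library. Of 10 B cell markers, 9 were over 2 times as high in WT replicate 3 as in any other lung sample, and the list summed to 4754 CPM there against 671 to 1747 CPM in the 9 others. Cd79a, part of the B cell receptor, was at 958 CPM against 51.7 to 370.0. Of 12 dendritic cell markers, 7 met the same mark (sum 1328 against 77.1 to 356 CPM), with Cd209a at 534 against 0.907 to 22.2 CPM. So did 7 of 10 interstitial macrophage markers (sum 12737 against 525 to 1965 CPM), among them the complement genes C1qa, C1qb and C1qc. Of 10 monocyte markers 3 did, Ccr2 (337 against 25.1 to 55.5 CPM), F13a1 and Cd14, and of 6 plasmacytoid dendritic cell markers Siglech did. None of the 10 lung epithelial, 10 alveolar macrophage, 10 T cell or 10 large peritoneal macrophage markers did. The part of these cells in the class II counts of WT replicate 3 was not tested.

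**Figure D3:**
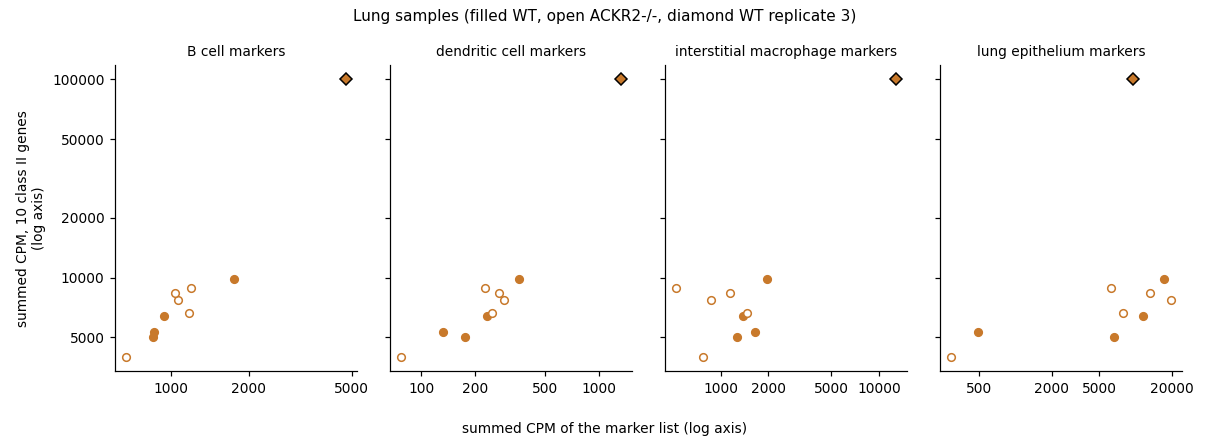
Summed CPM of the 10 class II genes in each lung sample against the summed CPM of 4 marker lists, both on log axes (filled WT, open ACKR2-/-, diamond WT replicate 3). WT replicate 3 is highest for B cell, dendritic cell and interstitial macrophage markers and lies within the other samples for lung epithelium.

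Cell types were compared within each genotype in an edgeR quasi-likelihood fit of all 26 samples, with Benjamini-Hochberg adjustment over 17792 genes. To be called, a gene had to reach an adjusted p below 0.05 together with a log2 difference beyond 0.5 in size. Between WT SPMs and WT monocytes all 10 members were called higher in SPMs, against 21.8% of all genes called higher. H2-Eb1 differed by 9.70 (SE 1.20) on the log2 scale (adjusted p = 3.39e-07), H2-Ab1 by 9.51 (SE 1.05) and H2-Aa by 9.43 (SE 1.11). Cd74 differed by 8.17 (SE 0.76) and Ciita by 5.95 (SE 0.80). The peptide exchange genes differed less, with 5.38 (SE 0.74) for H2-DMb2, 5.30 (SE 0.72) for H2-DMb1 and 4.13 (SE 0.60) for H2-DMa, as did H2-Ob at 5.60 (SE 0.58) and H2-Oa at 4.67 (SE 0.78). The median log2 fold change was 5.78 over the members and 0 over all genes tested. In ACKR2-/- cells the same 10 were called higher (20.8% of all genes), between 3.77 (SE 0.73) for H2-Oa and 9.96 (SE 1.21) for H2-Eb1.

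Between WT lung macrophages and WT monocytes 9 of 10 members were called higher in the lung, against 39.5% of all genes. The median log2 fold change was 4.91 over the members and 0.34 over all genes tested. H2-Eb1 differed by 6.08 (SE 1.01), H2-Ob by 5.74 (SE 0.58), H2-Oa by 4.71 (SE 0.77) and H2-DMa by 0.28 (SE 0.51), which was not called (adjusted p = 0.640, edgeR). Without lung WT replicate 3 the values of these genes were 3.30 (SE 0.45), 4.85 (SE 0.39), 3.25 (SE 0.51) and -1.14 (SE 0.26). H2-DMa was then called lower in the lung (adjusted p = 4.40e-04), H2-DMb1 changed from 1.44 (SE 0.59) to -0.35 (SE 0.25) and lost its call (adjusted p = 0.0354 and 0.233), and the other 8 remained called higher (39.9% of all genes higher, 24.7% lower). In ACKR2-/- samples, which hold neither doubtful WT library, 7 members were called higher in the lung (37.6% of all genes), with H2-DMa at -1.01 (SE 0.50), H2-DMb1 at -0.61 (SE 0.57) and Ciita at 0.47 (SE 0.64) not called.

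Between WT SPMs and WT lung macrophages 8 of 10 members were called higher in SPMs, against 23.2% of all genes. The median log2 fold change was 3.34 over the members and -0.41 over all genes tested. H2-Aa differed by 4.11 (SE 0.80), H2-DMa by 3.84 (SE 0.54) and Ciita by 2.92 (SE 0.63). The H2-O genes were not called, with -0.040 (SE 0.61) for H2-Oa (95% interval -1.30 to 1.22) and -0.14 (SE 0.44) for H2-Ob (95% interval -1.04 to 0.77). Without WT replicate 3 all 10 were called higher in SPMs (24.0% of all genes), H2-Aa by 6.70 (SE 0.47), H2-Oa by 1.42 (SE 0.45) (adjusted p = 0.00856, edgeR) and H2-Ob by 0.75 (SE 0.32) (adjusted p = 0.0469). In ACKR2-/- samples 9 were called higher (24.7%), H2-Aa by 6.37 (SE 0.89), H2-Oa by 1.40 (SE 0.61) and H2-Ob by 0.76 (SE 0.44), which was not called (adjusted p = 0.131). The H2-O genes had the smallest values of the 10 in both genotypes. SPMs were sorted as MHCII positive and the lung cells as MHCII negative, so these contrasts describe the sorted populations.

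Ratios of levels per gene length within a sample do not depend on library scaling, and are given as descriptions. H2-DMa was 244 to 567% of H2-Aa in monocytes (median 399%), 19.8 to 89.2% in the 9 lung samples (median 22.9%) and 7.53 to 11.2% in SPMs (median 9.34%). The 3 ranges did not overlap, and lung WT replicate 3, at 8.96%, fell within the SPM range. Cd74 was 2.67 to 4.30 times H2-Ab1 in monocytes, 4.16 to 15.1 times in the 9 lung samples and 1.30 to 1.69 times in SPMs. H2-Ab1 to H2-Aa, the chains of I-A, varied little, from 1.28 to 1.79 in monocytes, 1.31 to 1.57 in SPMs and 1.46 to 2.08 in all 10 lung samples.

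The second H2-M beta gene and the H2-O genes took a larger place in the lung. H2-DMb2 was 11.3 to 17.9% of H2-DMb1 in monocytes, 10.5 to 20.9% in SPMs and 15.3 to 139% in the 9 lung samples (median 89.0%), where only ACKR2-/- replicate 4 fell among the other cell types. H2-Ob, the H2-O beta chain, was 0.584 to 1.40% of H2-DMb1 in monocytes, 0.764 to 1.19% in SPMs and 8.86 to 55.8% in the lung. H2-Oa, the H2-O alpha chain, was 0.546 to 3.21% of H2-DMa in monocytes, 0.570 to 1.31% in SPMs and 3.36 to 21.5% in the lung. For both H2-O ratios every lung sample lay above every other sample. These are ratios, and the level of H2-Ob itself was not higher in the lung. Per kilobase, scaled over all 26 samples, it was at 10.3 to 26.5 CPM in SPMs. The lung samples other than WT replicate 3 held it at 3.86 to 19.6. In CPM scaled within each table, the B cell list summed to 671 to 1747 in these lung samples. It summed to 311 to 990.2 in WT SPMs and 583 to 853 in ACKR2-/- SPMs, and its part in the H2-O counts was not tested. BC051537, an antisense gene that spans H2-Oa, had 20 to 900 counts in lung samples and at most 3 in monocytes or SPMs. No source used here gives the strand setting of the counting, so reads of this pair cannot be told apart.

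**Figure D4:**
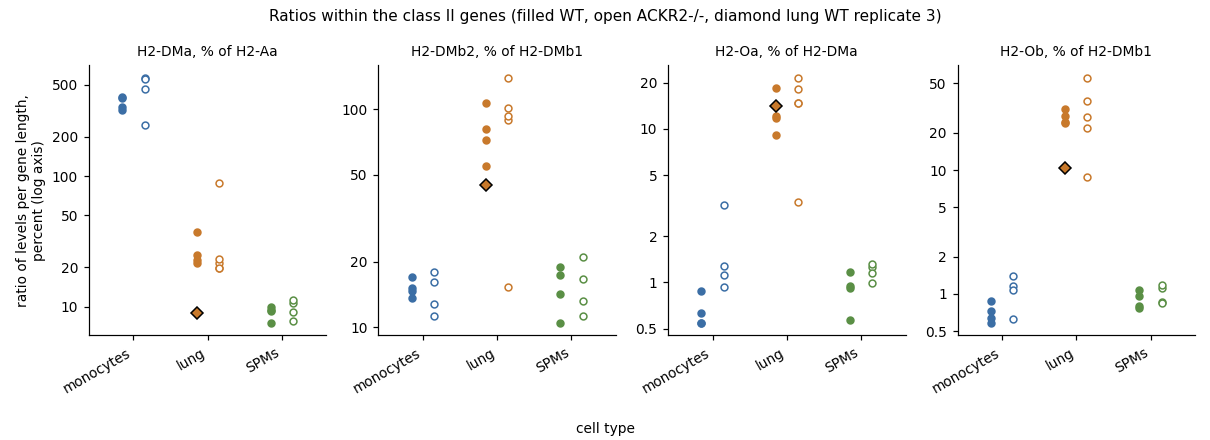
Ratios of levels per gene length in each sample, in percent on log axes, by cell type. H2-DMa relative to H2-Aa is highest in monocytes and lowest in SPMs, with lung WT replicate 3 (diamond) among the SPMs, while H2-Oa and H2-Ob relative to the H2-M chains are highest in all lung samples.

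The effect of ACKR2 deficiency was tested within each cell type by edgeR's quasi-likelihood test, with p-values adjusted over all genes tested there. ACKR2 is a scavenging receptor for inflammatory CC chemokines. In monocytes 0 of 10 members were called, while 1.27% of 13246 genes were, and 3 members had an unadjusted p under 0.05 (17.0% of all genes). The median log2 fold change was 0.13 over the members and 0.0041 over all genes tested. For both H2-O genes every ACKR2-/- sample lay above every WT sample, and for H2-Aa and H2-Eb1 every ACKR2-/- sample lay below.

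H2-Oa stood at 1.24, 1.87, 1.56 and 1.34 CPM in WT monocytes and at 4.84, 2.56, 3.05 and 3.40 CPM in ACKR2-/- monocytes, from 19, 30, 28 and 24 and 90, 45, 58 and 64 counts. All ACKR2-/- samples were above all WT samples, as for 4.94% of all genes. The log2 fold change was 1.20 (SE 0.28) with an adjusted p of 0.0660 (edgeR), and DESeq2 called it at an adjusted p of 0.00922, the lowest of a range up to 0.214 over 14 alternatives. H2-Ob was at 1.24, 1.43, 2.11 and 1.68 CPM in WT and 3.33, 2.50, 2.16 and 3.51 CPM in ACKR2-/- samples, again without overlap, and its log2 fold change of 0.83 (SE 0.28) did not pass (adjusted p = 0.181, edgeR).

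H2-Eb1, the I-E beta chain, was at 44.2, 39.9, 33.2 and 35.9 CPM in WT and 33.1, 22.4, 29.3 and 29.3 CPM in ACKR2-/- monocytes. The highest ACKR2-/- sample lay just under the lowest WT sample, and ACKR2-/- replicate 2 was the lowest of all. Its log2 fold change was -0.42 (SE 0.14) (adjusted p = 0.172, edgeR). H2-Aa was at 100.4, 90.0, 88.4 and 88.2 CPM in WT and 88.2, 57.6, 83.6 and 81.7 CPM in ACKR2-/- samples, and the groups met at 88.2 CPM. Its log2 fold change was -0.24 (SE 0.14). For H2-Eb1 and H2-Aa the ACKR2-/- samples were all lower, as for 5.25% of all genes. H2-Ab1, the partner of H2-Aa, differed by 0.015 (SE 0.14) (95% interval -0.30 to 0.33), with ACKR2-/- replicate 1 above and replicate 2 below every WT sample.

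Cd74 differed by -0.23 (SE 0.16) and H2-DMa by 0.055 (SE 0.20) between the genotypes in monocytes. H2-DMb1 differed by 0.31 (SE 0.15), with 99.7, 105, 114 and 108 CPM in WT and 112, 102, 163 and 152 CPM in ACKR2-/- samples, where replicates 3 and 4 were above all others. H2-DMb2 differed by 0.21 (SE 0.12) and Ciita, at 2.36 to 3.78 CPM in WT and 1.71 to 6.24 CPM in ACKR2-/- samples, by 0.24 (SE 0.36). None of these 5 passed (adjusted p from 0.329 to 0.913, edgeR).

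Some markers of other cells were higher in the ACKR2-/- monocyte samples. All 10 T cell markers were called higher in ACKR2-/- samples (sum 4.17 to 5.60 CPM in WT, 72.9 to 130.2 CPM in ACKR2-/-). Of 6 plasmacytoid dendritic cell markers 3 were called higher, Siglech, Klk1 and Cox6a2 (sum 164 to 209.9 and 208 to 297 CPM), and Siglech was at 4.88, 4.54, 3.56 and 5.26 CPM in WT and 78.6, 18.6, 17.2 and 26.3 CPM in ACKR2-/- samples. Of 12 dendritic cell markers Ccr7 was called higher. Of 10 B cell markers 5 could be tested, all 5 had log2 fold changes above 0 and none was called. The list summed to 643 to 739 and 735 to 1023 CPM, mostly Ighm (593 to 689 and 650 to 967 CPM). Cd79a was at 2.46 to 4.40 CPM in WT and 8.93, 12.5, 2.10 and 1.97 CPM in ACKR2-/- samples. Ms4a1 was likewise above the WT samples in ACKR2-/- replicates 1 and 2 and below them in replicates 3 and 4. Ighd was above them in all ACKR2-/- samples. The part of these cells in the H2-Oa and H2-Ob values was not tested.

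In SPMs 0 of 10 members were called, as for nearly all genes (0.0462% called of 12997), with none by DESeq2, and 0 had an unadjusted p under 0.05 (5.46% of all genes). H2-Aa was at 21823, 31832, 27509 and 30659 CPM in WT and 29342, 27194, 19445 and 22576 CPM in ACKR2-/- SPMs. H2-Ab1 was at 29372, 36408, 37813 and 35409.7 CPM in WT and 36409.9, 33583, 24425 and 27853 CPM in ACKR2-/- SPMs. Both groups overlapped widely, and the log2 fold changes were -0.18 (SE 0.25) (95% interval -0.74 to 0.37) and -0.19 (SE 0.25) (95% interval -0.73 to 0.36). Over the 10 members they ran from -0.32 (SE 0.30) for Ciita to 0.24 (SE 0.36) for H2-Oa, with adjusted p from 0.814 to 0.987 (edgeR). The median log2 fold change was -0.12 over the members and -0.052 over all genes tested. H2-DMb2 had the widest interval, -0.99 to 0.91.

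Within the SPM samples WT replicate 1 stood low for the H2-M and H2-O genes. H2-DMa was at 1439, 2594, 2407 and 2516 CPM in WT and 2343, 2531, 1916 and 1534 CPM in ACKR2-/- SPMs. H2-DMb2 was at 119, 485, 411 and 344 CPM in WT and 305, 518, 343 and 157 CPM in ACKR2-/- SPMs, and H2-Oa at 6.57, 19.2, 22.5 and 19.1 and 23.8, 23.5, 20.1 and 12.1 CPM. WT replicate 1 was lowest for all 3, followed by ACKR2-/- replicate 4. Ciita went the other way in WT replicate 1, at 138, 75.6, 50.3 and 73.1 CPM in WT and 87.5, 73.7, 54.8 and 55.5 CPM in ACKR2-/- SPMs. Cd209a, a dendritic cell marker, was also lowest in WT replicate 1 and ACKR2-/- replicate 4, at 143, 771, 1221 and 929 CPM in WT and 515, 873, 1049 and 192 CPM in ACKR2-/- SPMs. The dendritic cell list of 12 summed to 377 to 1537 CPM in WT and 337 to 1335 CPM in ACKR2-/- SPMs. Within it Clec10a, Dpp4 and Kmo were also lowest in WT replicate 1 and ACKR2-/- replicate 4. Others of the list, such as Batf3, Flt3 and Xcr1, were not lowest in WT replicate 1. Cd79a, a B cell marker, was lowest in the same samples, at 72.7, 219, 269 and 194 CPM in WT and 203, 248, 192 and 166 CPM in ACKR2-/- SPMs. The B cell list was lowest there too, at 311 and 583 CPM. Ccr2, a monocyte marker, was highest in WT replicate 1, at 1815 CPM against 342 to 732 CPM. ACKR2-/- replicates 1 and 4 stood apart for other markers. Ly6c2, of the monocyte list, was at 380 and 707 CPM there, against 16.8 to 56.6 CPM in the other SPM samples. Marco, of the alveolar macrophage list, was at 206 and 311 CPM against 5.85 to 31.6 CPM. F13a1, also of the monocyte list, was lowest in these replicates (81.1 and 67.4 CPM). The part of these cells in the class II values was not tested.

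In the lung 0 of 10 members were called, with none by DESeq2, nor was any of the 16824 genes tested (0% called by edgeR, 15 genes by DESeq2), and the direction of the class II difference rested on a single library. With all samples, all 10 members had log2 fold changes below 0, from -2.69 (SE 1.16) for H2-Eb1 to -0.75 (SE 0.59) for H2-Ob. The median log2 fold change was -1.65 over the members and -0.038 over all genes tested. Of the members, 5 had an unadjusted p under 0.05 against 2.97% of all genes, and each adjusted p was 0.999945 (edgeR). Without WT replicate 3 the log2 fold change was 0.18 (SE 0.53) for H2-Eb1, 0.24 (SE 0.45) for H2-Aa and 0.11 (SE 0.45) for H2-Ab1, and 9 of 10 members had values above 0, up to 0.37 (SE 0.53) for H2-Oa. No member then had an unadjusted p under 0.05, and edgeR called none of the 17316 genes tested. Cd74 then had the interval -0.45 to 0.63 and H2-DMb1 -0.32 to 0.45.

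Ciita was the member whose value stayed below 0 without WT replicate 3, at -0.58 (SE 0.41) (95% interval -1.50 to 0.33). Without both doubtful WT libraries, that replicate and the library labelled WT replicate 5, it differed by -0.87 (SE 0.33) (95% interval -1.59 to -0.14), and the adjusted p was 0.999867 (edgeR). The remaining WT samples, replicates 1, 2 and 4, were at 7.79, 8.75 and 10.7 CPM and the ACKR2-/- samples at 2.53 to 6.47 CPM, and the libraries left out were chosen with their values known. Under the same omission H2-Aa differed by 0.067 (SE 0.48), H2-Ab1 by -0.081 (SE 0.47) and H2-Eb1 by -0.062 (SE 0.54). Dexi, a gene on the other strand that overlaps Ciita, had 124 to 627 counts in lung samples, and reads of that overlap cannot be told apart.

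**Figure D5:**
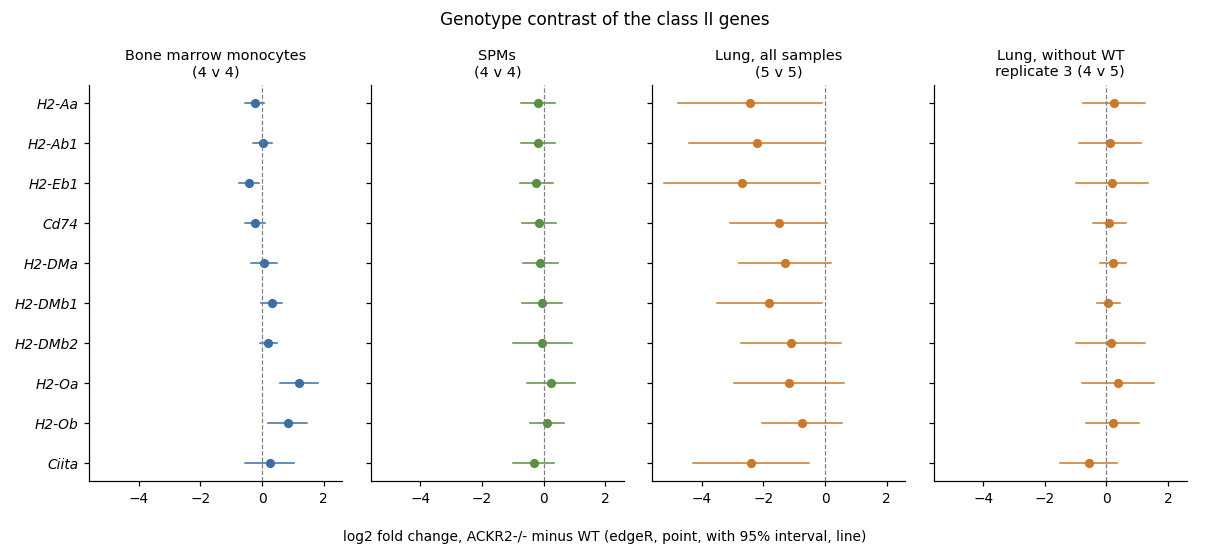
Log2 fold change of each class II gene between ACKR2-/- and WT samples (point, with the 95% interval as a line) from edgeR, in monocytes, SPMs and lung macrophages, the latter with and without WT replicate 3. H2-Oa is furthest to the right in monocytes, at 1.20, and in the lung the points left of 0 move to it or just right of it, Ciita excepted, once WT replicate 3 is left out.

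Whether the genotype effect differed between cell types was tested by interaction terms of the fit of all 26 samples. No member was called in any of the 3 pairs of cell types, where 0.253% (SPM and monocyte), 0.152% (lung and monocyte) and 0.0393% (SPM and lung) of all genes were, and DESeq2 called none either. At an unadjusted p under 0.05 there were 0, 5 and 5 members in these pairs (7.46%, 6.07% and 6.15% of all genes). The value of H2-Oa was -0.90 (SE 0.97) for SPMs against monocytes (adjusted p = 0.884, edgeR) and -2.33 (SE 0.93) for the lung against monocytes, or -0.88 (SE 0.65) without lung WT replicate 3. For H2-Aa the lung against monocyte value was -2.13 (SE 1.05) with all samples and 0.46 (SE 0.51) without that replicate.

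The genes that act around class II were described by lists of class II transcription (12 genes), antigen processing (8), class II turnover (3), costimulation (6) and other genes of the locus (3), as found in the tables. No gene of these lists was called between the genotypes, of 27 tested in monocytes, 29 in SPMs and 31 in the lung. Between cell types they divided. Of 8 antigen processing genes, 6 were called higher in WT SPMs than in WT monocytes and none lower, against 21.8% of all genes called higher and 20.1% lower. They were led by Ifi30, the lysosomal thiol reductase, at 8.27, and included Ctss at 2.53, the protease that trims the invariant chain. Of 12 genes that regulate class II transcription, 3 were called higher and 3 lower in the same contrast, beside those same shares of all genes. Irf4 differed by 3.14 and Irf8 by -4.46, while the RFX subunits Rfx5 and Rfxap, which bind the X box, were not called (-0.68 and -0.17).

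The costimulation list also holds Cd274 and Pdcd1lg2, which encode the inhibitory ligands PD-L1 and PD-L2, so its counts do not describe costimulation alone. All 6 genes of this list were called higher in WT lung macrophages than in WT monocytes, against 39.5% of all genes. In ACKR2-/- cells 4 of 6 were, against 37.6%. Cd274, which encodes PD-L1, differed by 6.44 in WT cells and Cd86 by 2.53. Without lung WT replicate 3, the lung sample with the most Icosl, Cd40 and Cd86, all 6 were still called (39.9% of all genes), with Cd274 at 6.69, Cd86 at 2.34 and Icosl at 0.90 in place of 1.60. Between WT SPMs and WT lung macrophages 4 of these 6 were called lower in SPMs and none higher, against 39.1% of all genes called lower. Cd274 differed by -4.96. Without WT replicate 3 there were 4 called lower (39.2% of all genes) and Cd40 was called higher in SPMs, at 0.68 in place of 0.38. Cd83, which stabilises class II at the surface, differed by -7.80 between WT SPMs and WT lung macrophages, and by -7.73 without WT replicate 3. In CPM scaled within each table it was at 0.512 to 2.62 in monocytes, 4.84 to 12.3 in SPMs, 1827 to 5528 in 9 lung samples and 4605 in WT replicate 3, within that range. The lung cells without surface MHCII thus had the highest Cd83 of the 3 populations and, in 9 of 10 samples, class II transcripts mostly below those of SPMs. Only the lung cells came from digested tissue, so cell type and digestion cannot be told apart in the Cd83 and Cd274 values. March1, the ligase that marks class II for removal, was not called in any of the 3 WT contrasts (0.65, 0.073 and 0.58). H2-Ea-ps, the inactive I-E alpha gene, had at most 9 counts in any sample, those of lung WT replicate 3.

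Within each cell type, genes were ranked by the correlation of their log2 CPM with the mean of H2-Aa, H2-Ab1, H2-Eb1 and Cd74 over the samples. In monocytes (8 samples) the closest were Slc30a7 (r = 0.979), Cnr2 (r = 0.978), Qrich1 (r = 0.969), Ythdf2 (r = 0.964) and Stk25 (r = 0.964). In SPMs (8 samples) they were Serf2 (r = 0.965), Edf1 (r = 0.949), Ap2s1 (r = 0.948), Cox6a1 (r = 0.947) and 6330537M06Rik (r = 0.930). In the lung (10 samples) they were Pkib (r = 0.984), Nelfe (r = 0.974), Tnfsf9 (r = 0.974), Gm44036 (r = 0.970) and Ptgr1 (r = 0.970). Without WT replicate 3 (9 samples) they were Hmgn1 (r = 0.990), Ccr7 (r = 0.987), Rsph9 (r = 0.984), Foxj1 (r = 0.983) and Arhgdig (r = 0.983). Ccr7, the receptor that guides dendritic cells and lymphocytes to lymph nodes, ranged from 24.9 to 238 CPM over those 9 samples. Rsph9 and Foxj1 were lower, at 0.966 to 9.25 and 0 to 5.57 CPM. The mean log2 CPM of the 4 class II genes was lowest in ACKR2-/- replicate 4, at 8.20 against 9.23 to 10.6 in the others, and this sample weighs on the ranking. The samples behind each value come from a single table and differ in depth, and these correlations are a description only.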

How the data were processed

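Poly-A RNA of sorted cells was made into libraries by template switching and sequenced as paired reads. The authors deposited raw read counts per gene in 1 table per cell type. The submitters' processing notes name HISAT2 2.0.5, featureCounts 1.5.0-p3, DESeq2 and the build mm10, and the lung table also holds summary lines of a counter (56.3% of its counts), which were left out. Groups came from the sample labels, and 0 sample columns were unmapped. Genes were kept by edgeR's filter (minimum count 10, minimum total 15). Genotypes were tested within each table and cell types in 1 fit of all samples, by the quasi-likelihood test of edgeR 4.0.16 with TMM factors (R 4.3.3) and Benjamini-Hochberg adjustment over all genes tested, and the script was tested on simulated data. The p-values measure the spread between samples of these pools. DESeq2 1.42.0, RLE factors, other filters, a replicate block and left-out samples were alternatives. Named genes were the 10 members, list genes that give each list its range, and the 5 genes most like the mean of H2-Aa, H2-Ab1, H2-Eb1 and Cd74, with a prior count of 2. The members, lists and doubted libraries were chosen with earlier results of these data known. Replicates differed by more than counting noise in every pair, with a chi-square of at least 11.6 per degree of freedom. Counts may include PCR copies.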

Additional observations from a re-analysis of the deposited data

Results flagged for a closer look

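In groups of 4 or 5 samples a sample was picked out where its gap to the nearest other sample exceeded Dixon's critical value for the group's range. This held for 16 of 60 groups of a class II gene. Chance picks out about 1 in 20 groups, but 10 of the 16 come from a single library whose genes are not independent, so the count is not read against that rate.

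Lung WT replicate 3 was picked out for all 10 genes, at 16613 CPM for H2-Aa, 21242 for H2-Ab1, 11994 for H2-Eb1, 46795 for Cd74, 1304 for H2-DMa, 1161.5 for H2-DMb1, 603 for H2-DMb2, 147 for H2-Oa, 258 for H2-Ob and 98.3 for Ciita. Lung ACKR2-/- replicate 4 was picked out as low for H2-Aa (149 CPM), H2-DMb2 (13.7) and H2-Eb1 (59.5).

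SPM WT replicate 1 was picked out as low for H2-DMa (1439 CPM) and H2-DMb1 (986). Monocyte WT replicate 1 was picked out as high for H2-Aa, at 100.4 CPM against 88.2 to 90.0 in the other WT samples.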

How the results depend on the processing

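DESeq2 called 1 class II gene between the genotypes in monocytes, H2-Oa, where edgeR called 0, and the adjusted p of H2-Oa with a sample left out ran from 0.0512 to 0.214. With a sample left out, the monocyte values ran from -0.12 to 0.13 for H2-Ab1, -0.11 to 0.23 for H2-DMa and -0.17 to 0.48 for Ciita. In SPMs they ran from -0.27 to 0.017 for H2-DMa, -0.25 to 0.11 for H2-DMb1, -0.34 to 0.19 for H2-DMb2, -0.028 to 0.42 for H2-Oa, -0.087 to 0.28 for H2-Ob and -0.49 to 0.031 for Ciita. In the lung they ran from -2.74 to 0.24 for H2-Aa, -2.53 to 0.11 for H2-Ab1, -3.02 to 0.18 for H2-Eb1, -1.75 to 0.087 for Cd74, -1.53 to 0.20 for H2-DMa, -2.07 to 0.062 for H2-DMb1, -1.36 to 0.14 for H2-DMb2, -1.44 to 0.37 for H2-Oa and -0.99 to 0.20 for H2-Ob, and the values above 0 were those without WT replicate 3. Between WT cell types they ran from -1.14 to 0.53 for H2-DMa and -0.35 to 1.69 for H2-DMb1 (lung minus monocyte), and from -0.30 to 1.42 for H2-Oa and -0.34 to 0.75 for H2-Ob (SPM minus lung). Without lung WT replicates 3 and 5 together, the genotype values in the lung were 0.067 for H2-Aa and Cd74, 0.16 for H2-DMa, 0.19 for H2-Oa and 0.081 for H2-Ob, and between WT cell types -1.09 for H2-DMa, -0.26 for H2-DMb1, 1.23 for H2-Oa and 0.62 for H2-Ob. H2-Oa between WT SPMs and lung was 0.016 with DESeq2 and 0.015 with RLE factors, which moved the median of all genes between WT SPMs and monocytes by 0.164. The replicate numbers did not pair the samples (correlations of deviations from -0.305 to 0.643). With the replicate block, H2-Ab1 was at -0.0030 in monocytes, H2-DMb2 at 0.0063 in SPMs, and between WT cell types H2-DMa at -0.038 (lung minus monocyte), H2-Oa at 0.42 and H2-Ob at 0.075 (SPM minus lung). The cause of these changes was not tested. Over all genes, the calls between genotypes went from 168 to 540 in monocytes with DESeq2 and to 346 with no filter, from 6 to 30 and 52 in SPMs, and from 0 to 15 in the lung with DESeq2. With a sample left out they ran from 76 to 413 in monocytes and from 3 to 8 in SPMs. The interaction calls went from 45 to 132, 27 to 110 and 7 to 24 with DESeq2. Between WT SPMs and monocytes DESeq2 called 4967 genes higher and 3030 lower, against 3877 and 3569.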
